A study of Mus musculus with 9 samples.

Results

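Endogenous LSK cells were compared with the circulating and irradiated LSK cells of the same series, to describe what the latter share and the former lack. LSK cells are bone marrow cells without lineage markers that carry Sca-1 and c-Kit, sorted here by flow cytometry from parabiotic mice, which are joined surgically so that they share a circulation. All 9 libraries of the series entered: 3 labelled endogenous (titles SJ), 3 labelled circulating and 3 labelled irradiated (both with titles DD). The strain label was B6SJL CD45.1 for endogenous cells and C57BL/6 for circulating and irradiated cells. The mice were specific pathogen free, and the radiation dose, ages and number of animals were not given there. One title code is shared by each circulating library and the irradiated library with its number. What the code stands for, and whether libraries came from separate animals, is not in the labels. P-values therefore measure the spread between these libraries, which may be technical. The strain label changes with the comparison, so strain and origin of the cells cannot be told apart. Whether C57BL/6 names the circulating cells or the mouse they were sorted from is not stated. Of 14461 genes in the table, 13771 had a value of at least 1 in at least 3 libraries and were tested.

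LSK cells contain haematopoietic stem cells (HSC), most of which rest outside the cell cycle, and multipotent progenitors, which divide and begin to express genes of the blood lineages. HSC are held in marrow niches by signals such as stem cell factor, read by the receptor Kit. Interferons, infection and loss of blood cells are known to bring stem cells into cycle, and myeloid differentiation is marked by granule proteases such as elastase and cathepsin G.

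All values are deposited normalised values, which are estimated read counts plus 0.5 divided by a scaled library size. Values per library are given in the order of replicates 1, 2 and 3. Differences are endogenous minus the mean of the circulating and irradiated group means of log2(value + 1), so positive values mean higher in endogenous cells, and their standard error (SE) and adjusted p come from limma. A gene was called at an adjusted p under 0.05, after Benjamini-Hochberg adjustment over the 13771 genes.

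Recovered depth was 14065855 to 27012345 estimated counts per library, with the lowest in circulating replicate 2. On the log2(value + 1) scale the SD of the median gene was 0.382 for circulating, 0.213 for irradiated and 0.262 for endogenous libraries. On the first principal component the endogenous libraries scored from -37.7 to -33.3, the irradiated from -10.3 to 2.32, circulating replicate 1 at -1.01 and circulating replicates 3 and 2 at 46.3 and 72.1. Those 2 circulating libraries stood apart on that component, and on the second they lay at opposite ends, replicate 2 at 51.8 and replicate 3 at -51.3. On the third component circulating replicate 1 stood apart, at 55.1 against -20.8 to 4.69 in the other libraries. All 3 circulating libraries thus differed from each other. Counts without circulating replicates 2 and 3 are given for the comparisons and the lists, and rest on 1 circulating library. Xist, the RNA of the inactive X chromosome, was 14.5 in circulating replicate 2 and 0.125 to 1.90 in the other libraries. Ddx3y, a gene of the Y chromosome, was 59.5 to 143 over all 9 libraries. Column totals were lowest in the endogenous libraries, at 913996 to 940112, against 986056 to 1134420 in the other 6.

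Against the mean of the other groups, 838 of 13771 genes were called (6.09%), 239 higher (1.74%) and 599 lower (4.35%) in endogenous cells. A difference of at least 1 log2 unit was found in 149 of the genes called higher and 149 of those called lower. The median size of a called difference was 0.77, and the median over all tested genes was 0.033. Of the 838 genes, 775 had the 3 endogenous libraries all above or all below the other 6, 206 above (1.50% of tested genes) and 569 below (4.13%). Without circulating replicates 2 and 3 the count was 699. When each column was rescaled to the same total, the median gene moved to 0.18, and 505 genes were called higher and 278 lower. Quantile normalisation gave 292 higher and 362 lower. The predominance of lower calls thus depends on the scaling, while 838 and 837 of the 838 genes had the same sign under these settings. Leaving out 1 library gave 105 calls without endogenous replicate 1 or 2, and 236 without endogenous replicate 3. It gave 194, 430 and 216 when irradiated replicate 1, 2 or 3 was dropped, and 1789, 1001 and 689 for the circulating ones in the same order.

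The comparisons behind the mean share the endogenous libraries. Against circulating cells 1189 genes were called (8.63%), 455 higher (3.30%) and 734 lower (5.33%) in endogenous cells. Against irradiated cells 83 were called (0.603%), 18 higher (0.131%) and 65 lower (0.472%). Counts of list members called against either group, given below, are to be read beside these shares. Lists and members were chosen with earlier results of these data known. A list count above the share over all genes is therefore not independent evidence about the list. Circulating and irradiated cells differed from each other in 4 genes (0.0290%), 3 higher (0.0218%) and 1 lower (0.00726%) in circulating cells, with 1573 at an unadjusted p under 0.05. The order of these counts was not stable: without circulating replicates 2 and 3 they were 164, 770 and 72, under sample weights 481 genes were called against circulating and 865 against irradiated cells, and in fits of only the groups compared 239 and 757. With 1 library left out the count against circulating cells was 257 (without endogenous replicate 1) to 2224 (without circulating replicate 1), and that against irradiated cells 6 (without irradiated replicate 3 or endogenous replicate 1) to 263 (without circulating replicate 1). Of 102 named genes called against the mean, 25 passed the test under every alternative fitted, 6 higher and 19 lower in endogenous cells. Among the higher ones were Serpinf1, Plxdc2, Ifitm1, Ifi44 and Kit. The lower ones were Fn3krp, Cldn15, Ms4a3, Elane, Ctsg, Trem3, Fcgr3, Clec5a, Prss16, Mt1, Rab7b, Plk1, Nkg7, Birc5, Rrm2, Ndufa1, Uqcrq, Rrm1 and Gmnn. These were genes of myeloid granules and surface receptors, mitosis, nucleotide synthesis and the respiratory chain, with others of separate function.

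**Figure D1:**
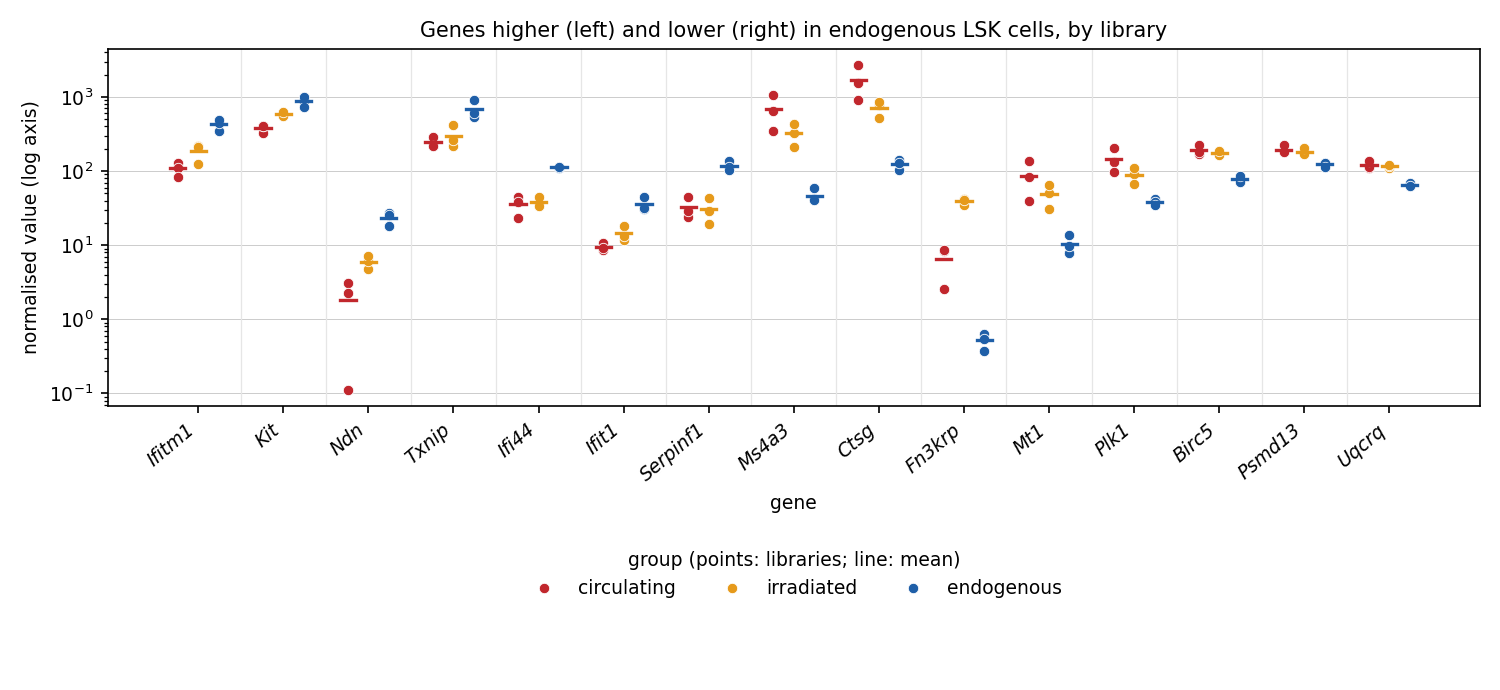
Deposited normalised values (log axis) of 15 named genes in each of the 9 libraries; points are libraries, horizontal lines are group means, and colours mark the circulating, irradiated and endogenous groups. In the 7 genes at the left the 3 endogenous libraries lie above the other 6, and in the 8 at the right below them.

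Among called genes with a mean log2 value of at least 2 and no overlap between the endogenous and the other 6 libraries, with predicted loci, pseudogenes, immunoglobulin, T cell receptor and mitochondrial genes left out, the 15 largest rises were Sema3d, Abcg3, Ndn, Axl, Mmp2, Ccl3, Npdc1, Acvr2a, Tle2, Serpinb8, Serpinf1, Gucy1a1, Plxdc2, Yes1 and Ctsf. Serpinf1, on chromosome 11 from 75409769 to 75422701 in GRCm38, encodes pigment epithelium-derived factor, a secreted serpin. Its values were 24.1, 44.2 and 28.6 in circulating, 43.5, 28.7 and 19.1 in irradiated and 137, 114 and 102 in endogenous libraries. All endogenous libraries lay above all of the other 6, and the difference was 1.93 (SE 0.26, adjusted p = 0.0043). Plxdc2, which encodes a membrane receptor with a plexin domain, was 5.49, 7.92 and 10.2 in circulating, 9.91, 8.78 and 11.7 in irradiated and 34.1, 39.7 and 32.7 in endogenous libraries, a difference of 1.89 (SE 0.25, adjusted p = 0.0035). Both genes lay apart from both other groups, which overlapped each other.

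Sema3d, a secreted guidance semaphorin, showed the largest rise by that rule, 2.88 (SE 0.66, adjusted p = 0.031), from 0.0376 to 9.56 in the other 6 libraries to 26.5, 27.9 and 28.8 in the endogenous ones. Its values in the other 6 libraries were scattered, and its call was lost without irradiated replicate 1 or 3 (adjusted p = 0.0723 and 0.0757) or any endogenous library (0.0931 to 0.118). Axl, a receptor tyrosine kinase, was 8.03, 6.42 and 0.0849 in circulating, 6.35, 5.99 and 8.18 in irradiated and 34.3, 25.3 and 24.4 in endogenous libraries (difference 2.33, SE 0.56, adjusted p = 0.036). Gucy1a1, a subunit of the nitric oxide receptor guanylyl cyclase, was 5.81, 8.07 and 3.26 in circulating, 8.96, 20.1 and 26.7 in irradiated and 41.1, 46.2 and 31.2 in endogenous libraries, so that irradiated cells lay between the other groups. The Gucy1a1 difference was 1.90 (SE 0.35, adjusted p = 0.016), and its call was lost without endogenous replicate 1 (0.0817) or 2 (0.0784). The Axl call was lost without any irradiated (0.0737 to 0.0834) or endogenous library (0.0941 to 0.15).

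By the same rule the 15 largest falls were Fn3krp, Cldn15, Ms4a3, Elane, Ctsg, Dmkn, Trem3, Fcgr3, Mgl2, Clec5a, Igsf6, Prom1, Prss16, Mpo and Mt1. Cldn15, which encodes the tight junction protein claudin 15, was 62.3, 149.6 and 205 in circulating, 36.3, 33.7 and 62.5 in irradiated and 7.84, 5.84 and 4.22 in endogenous libraries. The endogenous libraries lay far below all of the other 6, and the difference was -3.44 (SE 0.35, adjusted p = 0.0012). Prss16, a serine protease best known from the thymus, was 7.67 to 16.6 in the other 6 libraries and 2.43, 0.110 and 0.857 in the endogenous ones (difference -2.64, SE 0.40, adjusted p = 0.0066). Trem3 and Clec5a encode receptors of myeloid cells. Trem3 was 42.9 to 202 in the other 6 libraries against 12.5, 7.61 and 7.72, and Clec5a was 12.6 to 89.5 against 8.11, 5.50 and 2.84.

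Stem cell genes were higher in endogenous cells. Of 24 tested HSC-associated genes, 11 rose, 0 fell and 13 did not pass, beside 1.74% of all tested genes called higher, and the median difference was 0.78 against 0.033 over all tested genes. At an unadjusted p under 0.05, 14 were higher and 0 lower, and voom called 12 and 0. The summed level of the list was 663 to 928 in circulating, 1177 to 1283 in irradiated and 1936 to 2073 in endogenous libraries, so the groups did not overlap and irradiated cells lay between. The list's median was 1.18 against circulating and 0.54 against irradiated cells, with 12 and 2 members called higher. Without circulating replicates 2 and 3 the list had 12 calls, and leaving out 1 library gave 3 (without endogenous replicate 1 or 2) to 13 (without circulating replicate 1).

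Ifitm1, an interferon-inducible membrane protein that is high in stem cells, was 130.2, 111 and 84.4 in circulating, 219, 209.6 and 123 in irradiated and 348, 440.4 and 497 in endogenous libraries (difference 1.61, SE 0.20, adjusted p = 0.0030). Ndn, which encodes the growth suppressor necdin and is imprinted, was 3.05, 0.113 and 2.24 in circulating, 4.78, 6.08 and 7.07 in irradiated and 26.8, 25.8 and 18.1 in endogenous libraries (difference 2.56, SE 0.40, adjusted p = 0.0078). The Ndn call was lost without endogenous replicate 1 (adjusted p = 0.059) or 2 (0.056). Nkx2-3, a homeobox gene of low level, also rose (1.65, SE 0.44, adjusted p = 0.049), from 0.255 to 3.27 in the other 6 libraries to at least 4.07 in the endogenous ones, a call lost without any of 7 of the 9 libraries, among them all endogenous ones (adjusted p = 0.0763 to 0.171) and all irradiated ones (0.0748 to 0.107), and circulating replicate 3 (0.0637). Against irradiated cells alone Ndn and Nkx2-3 were not called by limma (adjusted p = 0.11 and 0.22). Gata2, Mecom and Vldlr did not pass against the mean. Mecom, a transcription factor gene, was 69.6, 22.0 and 71.1 in circulating, 86.0, 80.3 and 84.7 in irradiated and 101, 102 and 80.6 in endogenous libraries, which overlapped the irradiated ones.

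Other lists held related members, counted beside 1.74% of all tested genes called higher. Of 8 tested imprinted genes 2 rose, Ndn and the non-coding RNA Meg3, with a median of 0.90. Meg3 passed the filter only through the endogenous libraries. Of 11 tested Hox genes and cofactors 1 rose, the cofactor Meis1 (359 ± 15.1 in endogenous, 257 ± 13.5 in irradiated and 214 ± 53.3 in circulating cells, SD, n = 3), with a median of 0.63. The imprinted list had 3 calls without circulating replicates 2 and 3, and the Hox list then had 1 with a median of 0.22. Hoxa9, at 135 ± 20.3 in endogenous, 108 ± 11.0 in irradiated and 108 ± 41.3 in circulating cells, was not called. The call of Meg3 was lost without endogenous replicate 1 (adjusted p = 0.0852) or 2 (0.0731), and that of Meis1 without any irradiated (0.0696 to 0.0769) or endogenous library (0.0852 to 0.135).

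**Figure D2:**
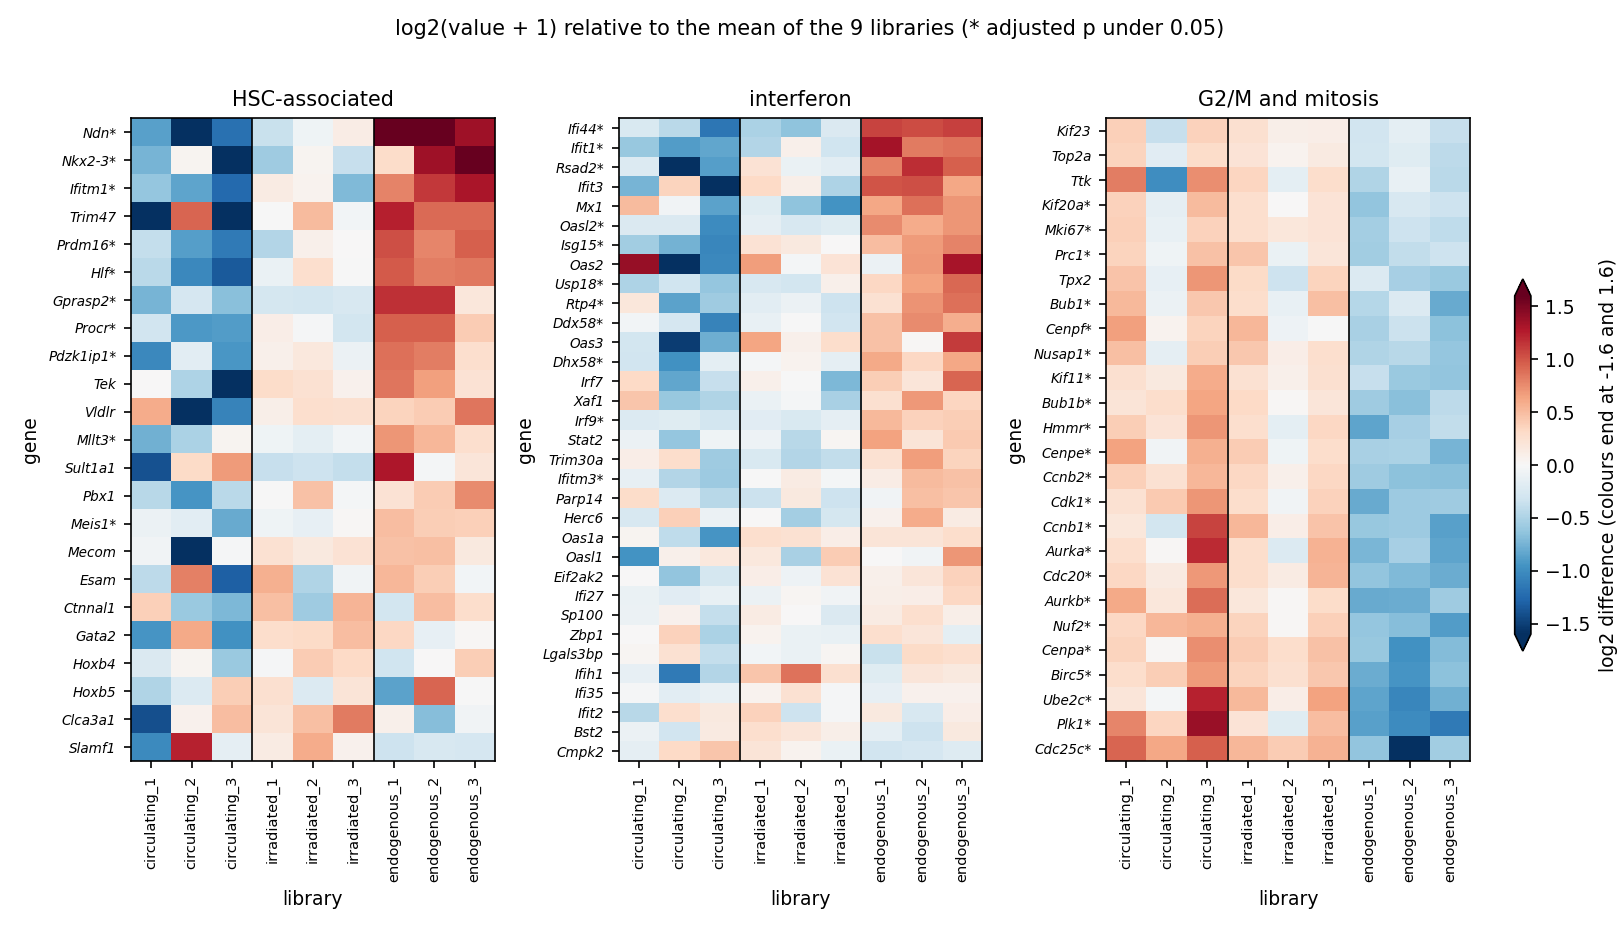
Level of tested HSC-associated, type I interferon response and G2/M and mitosis genes in the 9 libraries, as log2(value + 1) minus the gene's mean over the libraries; rows are sorted by the difference between endogenous and the other groups and asterisks mark called genes. The 3 endogenous columns are red in the upper rows of the first 2 panels and blue in the mitosis panel, where all 26 genes had a negative difference.

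The genes of the sorting gate were present in every library. Kit, one of the gate's own genes, differed: it was 327, 401 and 409.9 in circulating, 576, 562 and 622 in irradiated and 887, 1011 and 737 in endogenous libraries, with no overlap between the 3 groups (difference 0.89, SE 0.12, adjusted p = 0.0036). Ly6a, which encodes Sca-1, was 138, 146 and 127 in circulating, 202, 159 and 163 in irradiated and 177, 194 and 169 in endogenous libraries, overlapped with irradiated cells and did not pass (0.22, SE 0.12, adjusted p = 0.28). Of the 12 gate and subset markers 2 rose, Kit and Procr, and 1 fell, Cd48, beside 1.74% of all tested genes called higher and 4.35% called lower. The list's median was 0.41. Without circulating replicates 2 and 3 the counts were also 2 and 1, with a median of 0.23. Procr, the endothelial protein C receptor, was 19.4 to 40.3 in the other 6 libraries and 73.8, 73.7 and 50.1 in the endogenous ones, and its call was lost without endogenous replicate 1 (adjusted p = 0.081) or 2 (0.071). Cd48, low on stem cells and present on most progenitors, was 392 to 548 in the other 6 libraries and 227, 325 and 333 in the endogenous ones (-0.60, SE 0.14, adjusted p = 0.035), a call lost without any irradiated (0.0741 to 0.0783) or endogenous library (0.0588 to 0.15), with columns rescaled to the same total (0.11) or after quantile normalisation (0.17). Against irradiated cells alone Kit, Procr and Cd48 were not called by limma (adjusted p = 0.088, 0.13 and 0.17). Cd34 (0.47, SE 0.15, adjusted p = 0.092) and Flt3 (0.84, SE 0.23, adjusted p = 0.055) did not pass against the mean. Flt3, a receptor of multipotent progenitors, was 766 in circulating replicate 1 and 325 to 469 in the other 5 of those libraries, against 642, 807 and 870.0 in the endogenous ones. In these sorted pools, fewer cells of a type and less RNA per cell cannot be told apart.

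Interferon response genes were also higher in endogenous cells. Of 34 tested genes 11 rose, 0 fell and 23 did not pass, beside 1.74% of all tested genes called higher, with 19 higher and 1 lower at an unadjusted p under 0.05, 12 and 0 called by voom and a median of 0.64 against 0.033 over all tested genes. Ifi44, an interferon-induced gene on chromosome 3 from 151730922 to 151749960, was 44.3, 38.9 and 23.1 in circulating, 36.8, 33.4 and 45.0 in irradiated and 113, 109.6 and 114 in endogenous libraries. The endogenous libraries lay close together and far above the other 6, which overlapped (difference 1.61, SE 0.20, adjusted p = 0.0030). Ifit1, which binds viral RNA, was 10.7, 8.61 and 9.03, then 11.9, 17.9 and 13.4, and 44.1, 30.9 and 31.7 in the same groups (1.52, SE 0.23, adjusted p = 0.0067), and its call was lost without endogenous replicate 1 (0.0566). Rsad2, the antiviral enzyme viperin, rose by 1.47 (SE 0.31, adjusted p = 0.024), and Oasl2, an oligoadenylate synthetase-like protein, by 1.02 (SE 0.17, adjusted p = 0.0098). The Rsad2 call was lost without any irradiated (0.0519 to 0.066) or endogenous library (0.0754 to 0.108), and that of Oasl2 without endogenous replicate 1 (0.0663) or 2 (0.0533). Sp100, a nuclear body protein gene, was 207, 231 and 169 in circulating, 242, 221 and 188 in irradiated and 242, 267 and 235 in endogenous libraries, which overlapped with irradiated ones, and did not pass (0.25, SE 0.13, adjusted p = 0.27). The list had 9 calls without circulating replicates 2 and 3, and 1 (without endogenous replicate 1) to 15 (without circulating replicate 1) with 1 library left out. Members called higher were 11 against circulating and 2 against irradiated cells.

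Promoter sequences of 9915 tested genes were matched by symbol in RefSeq (GRCm38.p6), each from 250 bases before to 50 bases after the start. The interferon-stimulated response element, the DNA site of interferon-activated factors, was searched on both strands as 2 copies of GAAA with 2 bases of any kind between them. It was found in 13 of 25 interferon genes with a promoter (52.0%) and in 399 of 9915 tested genes (4.02%). Among the called members 5 of 8 held it and among the others 8 of 17, so it was present in part of both. The called members with the largest differences that held it before the start are shown to place the element, with the 250 bases before the start 5′ to 3′ on the gene's strand and the element, here on the opposite strand, in capitals.
Ifit1, chr19:34640639-34640888, plus strand: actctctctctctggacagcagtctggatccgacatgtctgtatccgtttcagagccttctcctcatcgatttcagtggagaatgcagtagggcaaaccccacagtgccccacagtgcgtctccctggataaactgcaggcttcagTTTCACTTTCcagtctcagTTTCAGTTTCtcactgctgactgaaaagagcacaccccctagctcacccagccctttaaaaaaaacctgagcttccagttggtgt
Rsad2, chr12:26456453-26456702, minus strand: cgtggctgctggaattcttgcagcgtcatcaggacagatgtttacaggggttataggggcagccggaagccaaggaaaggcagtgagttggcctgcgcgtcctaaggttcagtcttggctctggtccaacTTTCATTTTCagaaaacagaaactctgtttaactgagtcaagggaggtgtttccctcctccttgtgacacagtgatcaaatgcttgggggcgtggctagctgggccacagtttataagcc
Ifit1 holds 2 copies, beginning 104 and 85 bases before the start, and Rsad2 holds 1, beginning 120 bases before it.

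Genes of mitosis were lower in endogenous cells. Of 26 tested genes of G2/M and mitosis 22 fell, 0 rose and 4 did not pass, beside 4.35% of all tested genes called lower. At an unadjusted p under 0.05, 25 were lower and 0 higher, and voom called 23 and 0. In 23 genes the 3 endogenous libraries lay below all of the other 6, where the share over all tested genes was 8.92% (and 5.71% for endogenous libraries above all others), and the median difference was -0.88. The summed level was 4964 to 7737 in circulating, 5019 to 6188 in irradiated and 3257 to 3428 in endogenous libraries. The count was 18 with columns rescaled to the same total, 17 after quantile normalisation and 25 without circulating replicates 2 and 3. It was 10 without endogenous replicate 1 or 2 and at most 26, without circulating replicate 2. The median was -0.99 against circulating and -0.79 against irradiated cells, with 21 and 6 members called lower.

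Birc5, which encodes survivin of the chromosomal passenger complex, was 169, 182 and 222 in circulating, 177, 166 and 187 in irradiated and 79.1, 71.6 and 87.2 in endogenous libraries. The other 6 libraries overlapped and all lay above the endogenous ones (difference -1.20, SE 0.12, adjusted p = 0.0012). Plk1, a mitotic kinase, was 134, 98.5 and 202, then 90.2, 67.2 and 109, and 41.7, 37.9 and 34.8 in the same groups (-1.51, SE 0.22, adjusted p = 0.0058). Cdc25c, the phosphatase that activates Cdk1, differed by -2.00 (SE 0.42, adjusted p = 0.023), with 38.3 to 56.4 in the other 6 libraries against 18.2, 3.20 and 19.2, so endogenous replicate 2 carried much of it. Without that library the difference was -1.26 (adjusted p = 0.025), smaller than that of Plk1. The Cdc25c call was lost without irradiated replicate 1 (0.0595), irradiated replicate 3 (0.0602) or endogenous replicate 1 (0.0544). Top2a, Tpx2 and Kif23 did not pass, with Top2a at 507 ± 38.6 in endogenous, 689 ± 39.0 in irradiated and 705 ± 135 in circulating cells (adjusted p = 0.052).

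The cell cycle homology region, TTTGAA, a promoter element of late cell cycle genes, was found on either strand in 16 of 22 mitosis genes with a promoter (72.7%) and in 14.9% of tested genes. The sequence CCAAT, the site of the factor NF-Y, was found in 19 of the 22 (86.4%) and in 43.0% of tested genes. Each element was also present in all 3 uncalled members with a promoter. Ube2c, the ubiquitin-conjugating enzyme of the anaphase-promoting complex, and Cdc20, its activator, were the called members with the largest differences that held TTTGAA before the start, and are shown with that element in capitals, as it reads on the gene's strand (TTCAAA in Ube2c, on the opposite strand).
Ube2c, chr2:164769679-164769928, plus strand: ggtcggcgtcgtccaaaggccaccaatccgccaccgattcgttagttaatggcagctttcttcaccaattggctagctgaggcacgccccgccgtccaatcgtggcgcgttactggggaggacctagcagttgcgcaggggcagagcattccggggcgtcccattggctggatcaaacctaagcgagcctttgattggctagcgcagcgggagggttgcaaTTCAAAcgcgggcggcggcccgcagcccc
Cdc20, chr4:118437344-118437593, minus strand: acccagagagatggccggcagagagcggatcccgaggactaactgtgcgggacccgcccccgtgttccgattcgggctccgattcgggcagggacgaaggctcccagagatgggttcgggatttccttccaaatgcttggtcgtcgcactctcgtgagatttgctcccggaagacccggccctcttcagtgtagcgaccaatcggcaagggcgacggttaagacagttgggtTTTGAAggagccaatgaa
The element begins 29 bases before the start in Ube2c and 18 bases before it in Cdc20. Ube2c was 188, 162 and 388 in circulating, 237, 177 and 259 in irradiated and 91.2, 79.3 and 96.2 in endogenous libraries, and Cdc20 was 251, 221 and 322, then 242, 219 and 291, and 129, 122 and 114. The endogenous libraries lay below the other 6 in both genes, with differences of -1.33 (SE 0.24, adjusted p = 0.014) and -1.06 (SE 0.14, adjusted p = 0.0035). The Ube2c call was lost without endogenous replicate 1 (0.0705) or 2 (0.0703).

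Genes of G1/S and DNA replication were lower in part. Of the 27 tested, 12 fell, 0 rose and 15 were not called, beside 4.35% of all tested genes called lower, with 20 lower and 0 higher at an unadjusted p under 0.05, 12 and 0 called by voom and a median of -0.42. With columns rescaled to the same total 4 fell and after quantile normalisation 5, without circulating replicates 2 and 3 there were 10, and with 1 library left out 3 (without endogenous replicate 1 or 2) to 14 (without circulating replicate 1). Members called lower were 13 against circulating and 2 against irradiated cells. Rrm2 and Rrm1 encode the subunits of ribonucleotide reductase, which makes the deoxynucleotides for replication. Rrm2 was 355, 503 and 553 in circulating, 399.7, 324 and 402 in irradiated and 185, 188 and 187 in endogenous libraries (-1.15, SE 0.14, adjusted p = 0.0025). The endogenous libraries were close together and below the other 6. Rrm1 fell by 0.76 on the log2 scale (SE 0.11, adjusted p = 0.0061), and Gmnn, the replication licensing inhibitor geminin, by 0.76 (SE 0.12, adjusted p = 0.0077). The licensing helicase subunits Mcm6 and Mcm7 did not pass. Mcm6 was 1041 ± 29.3 in endogenous, 1077 ± 58.9 in irradiated and 1138 ± 34.9 in circulating cells, a difference of -0.09 (SE 0.07, adjusted p = 0.51).

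The E2F site, searched on both strands as TTTGGCGC or TTTCCCGC, was found in 8 of 22 G1/S genes with a promoter (36.4%) and in 3.51% of tested genes. It was in 3 of 10 called and 5 of 12 other members. The called member with the largest difference that held it before the start was Cdc6, which loads the replicative helicase, shown with the site, on the opposite strand, in capitals.
Cdc6, chr11:98907901-98908150, plus strand: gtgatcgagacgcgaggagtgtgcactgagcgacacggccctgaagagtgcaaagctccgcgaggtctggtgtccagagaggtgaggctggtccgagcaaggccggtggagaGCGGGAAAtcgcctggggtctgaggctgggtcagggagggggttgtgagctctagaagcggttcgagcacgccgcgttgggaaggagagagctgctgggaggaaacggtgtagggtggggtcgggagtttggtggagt
The site begins 138 bases before the start. Cdc6 was 133, 173 and 144 in circulating, 113, 124 and 119.5 in irradiated and 76.4, 95.2 and 85.4 in endogenous libraries, which lay below the other 6 (-0.64, SE 0.13, adjusted p = 0.019). Its call was lost without irradiated replicate 1 (0.0518) or 3 (0.0566) or any endogenous library (0.0557 to 0.0986).

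Among 18 tested cell cycle inhibitors, D cyclins and quiescence genes 1 rose and 1 fell, and 1 and 0 without circulating replicates 2 and 3. Over all tested genes 1.74% were called higher and 4.35% lower. Txnip, which encodes thioredoxin-interacting protein, a brake on glucose uptake and on the cycling of stem cells, was 224, 288 and 219 in circulating, 215, 423 and 265 in irradiated and 540.4, 903 and 607 in endogenous libraries. The endogenous libraries were the 3 highest (1.33, SE 0.21, adjusted p = 0.0084), and the call was lost without endogenous replicate 2 (0.0563). Rbl1, the retinoblastoma relative p107, fell from 139 to 169 in the other 6 libraries to 118, 107 and 125 (-0.41, SE 0.10, adjusted p = 0.043), a call that held with circulating replicate 1 left out and was lost without each of the other libraries (0.0513 to 0.16), with equal totals (0.18) and after quantile normalisation (0.16). The cyclin-dependent kinase genes Cdk4 and Cdk6 and the cyclin gene Ccnd2 did not pass.

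**Figure D3:**
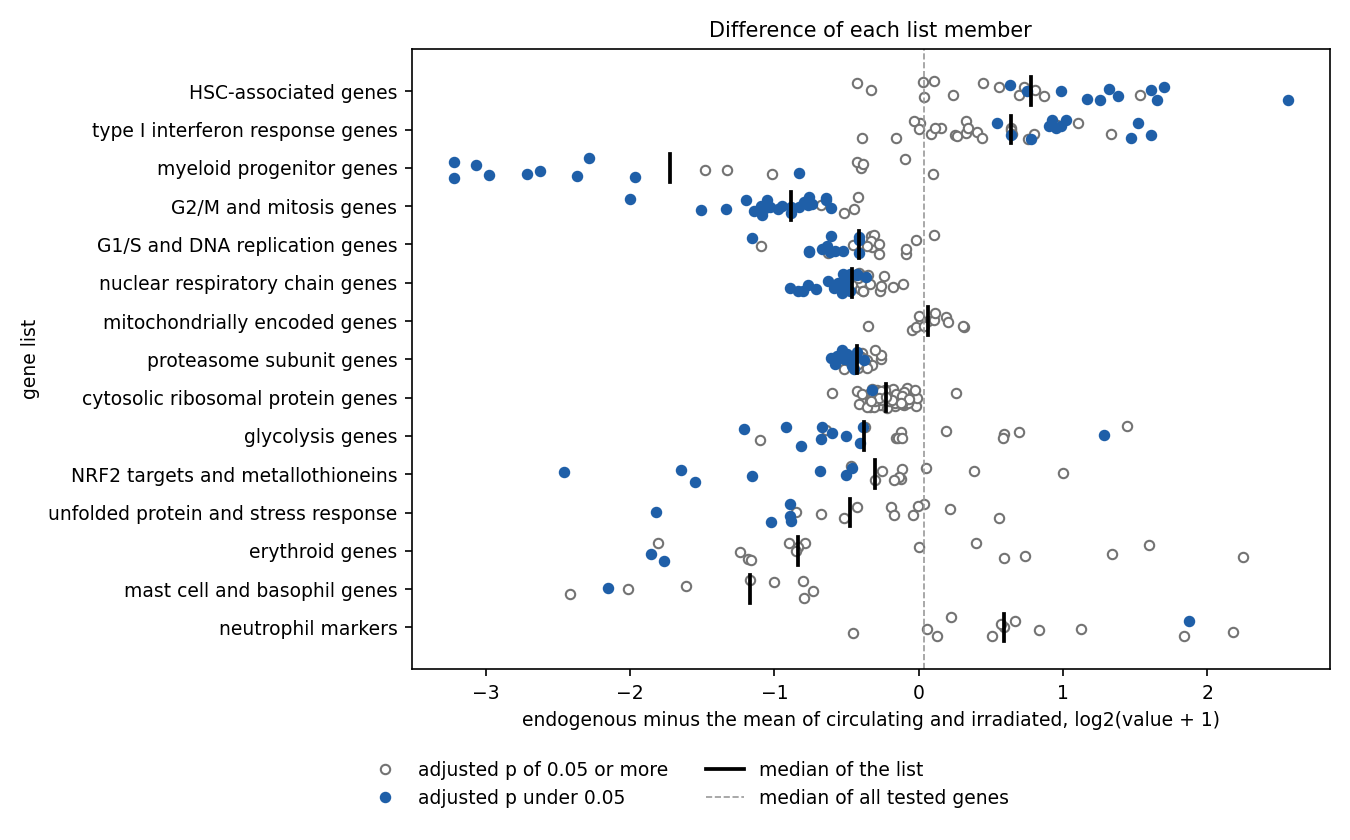
Difference between endogenous cells and the mean of circulating and irradiated cells, on the log2(value + 1) scale, for each tested member of 15 gene lists; filled points were called, black bars are list medians and the dashed line is the median of all tested genes, 0.033. All tested members of the mitosis, respiratory chain, proteasome and mast cell lists lie below 0.

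Nuclear genes of the respiratory chain were lower in part. All 38 tested had a negative difference, 22 fell and 0 rose, beside 4.35% of all tested genes called lower, 34 were lower and 0 higher at an unadjusted p under 0.05, voom called 24 lower and 0 higher, and the median was -0.46. Uqcrq, a subunit of complex III, was 110.1, 114 and 138 in circulating, 111, 117 and 121 in irradiated and 64.3, 69.6 and 63.5 in endogenous libraries (-0.84, SE 0.12, adjusted p = 0.0055). Ndufa1, a subunit of complex I, was 124 to 169.8 in the other 6 libraries and 74.6, 88.2 and 84.0 in the endogenous ones (-0.80, SE 0.12, adjusted p = 0.0061). Both genes separated endogenous from the other libraries, which overlapped. Cyc1, cytochrome c1 of complex III, had the largest difference of the list (-0.89, SE 0.17, adjusted p = 0.017), and its call was lost without irradiated replicate 1 (0.0512) or endogenous replicate 1 (0.0585), 2 (0.0798) or 3 (0.0602). Sdha and Atp5a1, with the highest levels among the uncalled members, differed by -0.11 (SE 0.10) and -0.24 (SE 0.12).

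The respiratory chain count depended on scaling and on single libraries: it was 10 with columns rescaled to the same total, 8 after quantile normalisation, 17 without circulating replicates 2 and 3, 2 without endogenous replicate 1 and at most 26, without circulating replicate 1. Members called lower were 20 against circulating and 2 against irradiated cells. Relative to the median of all genes, the list's median was -0.50, -0.48 and -0.29 under the deposited scaling, the same total and quantile normalisation. Of the 13 genes encoded in mitochondrial DNA, limma called 0, with 1 higher and 1 lower at an unadjusted p under 0.05, and voom also called 0. Their median was 0.067, and 1 fell without circulating replicates 2 and 3. The gene mt-Co1, which encodes a subunit of complex IV, was 5833, 4387 and 4579.6 in circulating, 4703, 4972 and 4039 in irradiated and 5211, 6818 and 5721 in endogenous libraries, which overlapped with circulating ones.

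All 31 tested proteasome subunit genes also had a negative difference, from -0.61 to -0.26, and 15 fell, beside 4.35% of all tested genes called lower, with 28 lower and 0 higher at an unadjusted p under 0.05, 18 and 0 called by voom and a median of -0.43. Psmd13, a subunit of the regulatory particle, was 184, 179 and 223 in circulating, 177, 169 and 203 in irradiated and 128, 129 and 114 in endogenous libraries (-0.61, SE 0.12, adjusted p = 0.018). Psmb5, the chymotrypsin-like subunit, was 211 to 269 in the other 6 libraries and 146, 177 and 166 in the endogenous ones (-0.58, SE 0.11, adjusted p = 0.018). In 25 of the 31 genes the endogenous libraries lay below all of the others, which held for 8.92% of all tested genes. The calls of Psmd13 and Psmb5 were lost without irradiated replicate 1 (0.0512 and 0.055) or 3 (0.0536 and 0.0539), or endogenous replicate 1 (0.0744 and 0.0912), 2 (0.0631 and 0.0557) or 3 (0.0667 and 0.0554). The count of calls was 4 with columns rescaled to the same total, 3 after quantile normalisation and 10 without circulating replicates 2 and 3. It was 0 without irradiated replicate 1 or 3 or any endogenous library, and 28 without circulating replicate 1. The list had 16 lower calls against circulating cells and 0 against irradiated cells. The antioxidant response element TGACNNNGC, the site of the factor NRF2, was found on either strand in 4 of 25 proteasome promoters (16.0%), beside 16.8% of tested genes.

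Of 60 tested cytosolic ribosomal protein genes 1 fell, Rpl4 (-0.32, SE 0.07, adjusted p = 0.030), beside 4.35% of all tested genes called lower. The list had a median of -0.23. That median was -0.06 with columns rescaled to the same total and 0.00 after quantile normalisation, with 0 calls by limma under either, 23 lower and 0 higher at an unadjusted p under 0.05 in the deposited scaling and 2 calls by voom. Of 20 genes of ribosome biogenesis and Myc 1 fell, also beside 4.35%. It was Npm1, the nucleolar protein nucleophosmin, at 806 ± 76.5 in endogenous, 1046 ± 30.4 in irradiated and 1103 ± 106 in circulating cells (-0.42, SE 0.09, adjusted p = 0.027). The calls of Rpl4 and Npm1 were lost without any irradiated (0.052 to 0.0795) or endogenous library (0.0602 to 0.135), with equal totals (0.19 and 0.11) and after quantile normalisation (0.29 and 0.49). The ribosomal protein list had 0 calls and the biogenesis list 1 without circulating replicates 2 and 3.

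Of 22 tested glycolysis genes 9 fell and 1 rose, beside 4.35% of all tested genes called lower and 1.74% called higher. Pgam1, phosphoglycerate mutase, was 547, 751 and 976 in circulating, 619.7, 523 and 649.6 in irradiated and 369, 329 and 355 in endogenous libraries (-0.92, SE 0.16, adjusted p = 0.011). Hk3, a hexokinase of myeloid cells, and Gpi1, glucose-6-phosphate isomerase, fell by 1.21 (SE 0.27, adjusted p = 0.030) and 0.82 (SE 0.17, adjusted p = 0.022) on the log2 scale. Ldhb, the lactate dehydrogenase subunit that favours use of lactate, went the other way: it was 27.5, 39.2 and 37.3 in circulating, 50.3, 51.0 and 32.3 in irradiated and 116, 126 and 59.9 in endogenous libraries (1.29, SE 0.25, adjusted p = 0.019). All endogenous libraries were above the other 6, with endogenous replicate 3 nearest to them. The calls of Ldhb and Pgam1 were lost without endogenous replicate 1 (0.10 and 0.0566) or 2 (0.0953 and 0.0622). Those of Hk3 and Gpi1 were lost without irradiated replicate 1 or 3 (0.0559 to 0.0659) or any endogenous library (0.0694 to 0.122). The list had 6 lower calls under either other scaling, 9 without circulating replicates 2 and 3, 1 without endogenous replicate 1 and 12 without circulating replicate 1. Its lower calls were 10 against circulating and 2 against irradiated cells.

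Genes of protein folding stress and of antioxidant defence were lower in part. Among 16 tested members of the unfolded protein and the integrated stress response, 5 fell and 0 rose, beside 4.35% of all tested genes called lower, with 8 lower and 1 higher at an unadjusted p under 0.05, 5 and 0 called by voom and a median of -0.47. Sdf2l1, a component of the endoplasmic reticulum chaperone complex, was 108, 181 and 311 in circulating, 147, 90.2 and 166 in irradiated and 46.5, 35.0 and 48.6 in endogenous libraries (-1.82, SE 0.29, adjusted p = 0.0084), and its call was lost without endogenous replicate 2 (0.0581). The others called were the disulfide isomerase genes Pdia4 and Pdia6, Manf, which encodes a factor secreted under such stress, and Hspa5, which encodes the chaperone BiP. The calls of Pdia4, Manf and Hspa5 were lost without irradiated replicate 1 or 3 (0.0589 to 0.0681) or endogenous replicate 1 or 2 (0.0852 to 0.112), those of Manf and Hspa5 also without endogenous replicate 3 (0.0617 and 0.0667), and that of Pdia6 without any endogenous library (0.0551 to 0.0718). The list had 0 calls without endogenous replicate 2 and 7 without circulating replicate 1. It had 4 without circulating replicates 2 and 3, with a median of -0.20. Its lower calls were 6 against circulating and 0 against irradiated cells. Of 17 NRF2 targets and metallothioneins 7 fell and 0 rose, also beside 4.35%, with 8 lower and 1 higher at an unadjusted p under 0.05 and 6 and 0 called by voom. Mt1, a metal-binding metallothionein, was 39.6, 83.6 and 137 in circulating, 51.1, 31.1 and 65.5 in irradiated and 13.6, 7.74 and 9.85 in endogenous libraries (-2.46, SE 0.36, adjusted p = 0.0059). Mt2 and the glutathione enzyme genes Gsr and Gstm1 fell as well, by 1.65 (SE 0.40, adjusted p = 0.037), 1.55 (SE 0.30, adjusted p = 0.018) and 1.15 (SE 0.26, adjusted p = 0.027) on the log2 scale. The calls of Gsr and Gstm1 were lost without any endogenous library (0.0531 to 0.103), that of Gstm1 also without irradiated replicate 1 or 3 (0.0713 and 0.0683). The call of Mt2 was lost without circulating replicate 3 (0.0559) or any irradiated (0.0506 to 0.0814) or endogenous library (0.0617 to 0.15). The list had 1 call when any endogenous library was left out, and 6 without circulating replicates 2 and 3. Its lower calls were 6 against circulating and 0 against irradiated cells.

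Myeloid progenitor genes were lower in endogenous cells. Of the 18 tested, 10 fell, 0 rose and 8 were not called, beside 4.35% of all tested genes called lower, with 14 lower and 0 higher at an unadjusted p under 0.05, 9 and 0 called by voom and a median of -1.72. The summed level was 14507 to 42754 in circulating, 9250 to 18375 in irradiated and 3092 to 4229 in endogenous libraries, so the endogenous libraries lay below both other groups, which overlapped. The median was -2.18 against circulating and -1.41 against irradiated cells, with 10 and 6 members called lower. Ms4a3, a membrane protein gene of granulocyte and monocyte progenitors on chromosome 19 from 11629496 to 11640851, was 346, 653 and 1065 in circulating, 326, 212 and 431 in irradiated and 58.5, 41.7 and 40.4 in endogenous libraries (-3.22, SE 0.31, adjusted p = 0.0012). Ctsg, cathepsin G of primary granules, was 516 to 2667 in the other 6 libraries and 143, 103 and 129 in the endogenous ones (-3.07, SE 0.28, adjusted p = 0.00079). In each of these genes circulating replicate 3 was highest.

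Csf3r, Irf8 and Spi1 were the uncalled members with the highest levels. Spi1, which encodes PU.1, was 118, 139 and 146 in circulating, 99.5, 113 and 108 in irradiated and 110.4, 70.8 and 93.9 in endogenous libraries, which overlapped with irradiated ones, and did not pass (-0.40, SE 0.15, adjusted p = 0.13). Irf8, a factor of monocytes and dendritic cells, did not pass either (-1.01, SE 0.34, adjusted p = 0.10), nor did Csf3r, the receptor for granulocyte colony-stimulating factor, at 164 ± 5.36 in endogenous, 162 ± 36.9 in irradiated and 193 ± 32.6 in circulating cells. The list had 10 calls without circulating replicates 2 and 3, 6 without endogenous replicate 2 and 13 without circulating replicate 1.

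Markers of other blood cells were counted in the same way, beside 1.74% of all tested genes called higher and 4.35% called lower. Their part in the results was not tested. Of 10 tested monocyte and macrophage markers 2 fell, Ly6c2 and the chemokine receptor gene Ccr2. At an unadjusted p under 0.05, 4 were higher and 3 lower, and with equal totals 2 were called higher and 2 lower. The summed level of the 10 was 1196 to 2793 in circulating, 1138 to 1607 in irradiated and 840.0 to 1275 in endogenous libraries. Of 9 mast cell and basophil genes 1 fell, Hdc, which makes histamine, with sums of 132 to 1156, 146 to 289 and 97.6 to 127. Of 7 dendritic cell markers 1 fell, Xcr1, which was 24.1, 118 and 30.8 in circulating, 13.3, 11.1 and 6.62 in irradiated and 5.08, 3.82 and 8.68 in endogenous libraries. Of 17 erythroid genes 2 fell, the transcription factor genes Klf1 and Gata1, with 2 higher and 6 lower at an unadjusted p under 0.05. Their sums overlapped at 1509 to 2928, 1310 to 2126 and 1611 to 2379. Of 13 neutrophil markers 1 rose, the granule collagenase gene Mmp8, and sums overlapped at 1356 to 2248, 949 to 2257 and 1324 to 2703. Voom called 0 of the monocyte, mast cell, dendritic and erythroid markers, and without any endogenous library the call of Xcr1 was lost (adjusted p = 0.0781 to 0.18), as was that of Hdc (0.0579 to 0.0703). The calls of Ly6c2, Ccr2, Klf1, Gata1 and Mmp8 were each lost without at least 5 of the 9 libraries, with an adjusted p of up to 0.18. Without circulating replicates 2 and 3 the monocyte list had 3 higher and 1 lower call and its median went from -0.30 to 0.02. The mast cell median went from -1.17 to -0.26 with 1 call, and the erythroid median from -0.84 to -0.41 with 1 call. The dendritic list then had 0 calls, and the neutrophil list 1 with a median of 0.45, beside 0.59 with all libraries.

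Of 13 B lineage and early lymphoid genes limma and voom called 0 against the mean. At an unadjusted p under 0.05, 2 were lower and 0 higher, and sums overlapped at 1509 to 7134, 2787 to 23705 and 2733 to 6034. Against circulating cells limma called 3 of them lower and against irradiated cells 0, beside 5.33% and 0.472% of all tested genes. Of 6 plasma cell markers limma and voom called 0, with 0 at an unadjusted p under 0.05. Of 10 T cell markers 1 rose, Cd4, beside 1.74% of all tested genes called higher. Cd4 went from 0.0853 to 4.47 in the other 6 libraries to 11.5, 9.95 and 4.99 in the endogenous ones. Of 10 MHC class II genes 1 fell, H2-Ab1, beside 4.35% of all tested genes called lower. Against circulating cells limma called 4 of the 10 lower and against irradiated cells 0, beside 5.33% and 0.472%. The list's medians in these comparisons were -1.46 and -0.42. H2-Ab1 was 1754 in circulating replicate 2, 198 to 584 in the other 5 circulating and irradiated libraries and 202, 136 and 126 in the endogenous ones. Of 4 tested NK cell markers 1 fell, Nkg7, also beside 4.35%. Nkg7, a granule membrane protein gene of cytotoxic and some progenitor cells, was 513, 662 and 896 in circulating, 527, 565 and 649 in irradiated and 228, 275 and 220.1 in endogenous libraries (-1.37, SE 0.16, adjusted p = 0.0019). In endogenous libraries Klrb1c was 1.53 to 4.87 and Klrk1 3.35 to 4.46, and both were highest in circulating replicate 2, where Klrk1 was 70.3. The single calls of Cd4 and H2-Ab1 were lost without any endogenous library (adjusted p = 0.0747 to 0.166 and 0.107 to 0.157) and without other libraries. Without circulating replicates 2 and 3 the B lineage and plasma cell lists had 0 calls, the T and NK cell lists 1 each and the MHC class II list 1 higher and 1 lower. The medians went from -0.56 to 0.01 for B lineage, from -0.33 to 0.32 for T cell and from -0.43 to -0.05 for NK cell genes.

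Genes for migration and adhesion were mostly not called. Of 24 integrins and adhesion molecules 3 fell (12.5%) and 0 rose, beside 4.35% of all tested genes called lower and 1.74% called higher. At an unadjusted p under 0.05, 6 were lower and 3 higher, and voom called 3 and 0. Without circulating replicates 2 and 3 there were 2 lower and 0 higher, and the median went from -0.07 to 0.20. Selp, P-selectin, was 39.4, 60.5 and 21.0 in circulating, 119, 123 and 147 in irradiated and 17.0, 24.6 and 28.4 in endogenous libraries (-1.56, SE 0.28, adjusted p = 0.015), so circulating and endogenous libraries overlapped and only irradiated ones lay apart. The Selp call was lost without endogenous replicate 1 (0.0817) or 2 (0.061), and with the 6 other libraries as 1 group (0.106). Itgb1 and Cd47 did not pass, at 343 ± 31.7 and 1144 ± 30.1 in endogenous cells.

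The p53, inflammatory, TGF-beta and cholesterol lists had shares of calls near the 6.09% over all tested genes. Of 23 p53 target genes 1 fell, Bax, which promotes apoptosis, at 44.2, 40.4 and 46.9 in endogenous libraries against 57.2 to 77.4 in the other 6 (-0.55, SE 0.15), and the list's median was -0.01. The Bax call was at the threshold and was lost without 7 of the 9 libraries, all irradiated (adjusted p = 0.10 to 0.112) and endogenous ones (0.0945 to 0.166) and circulating replicate 3 (0.0663). Of 13 immediate early genes limma and voom called 0, with 4 higher and 1 lower at an unadjusted p under 0.05. Of 20 genes of NF-kB and inflammatory signalling 1 rose, the chemokine gene Ccl3, of 22 TGF-beta and BMP genes 1 rose, the activin receptor gene Acvr2a, and of 22 genes of cholesterol synthesis and uptake 1 fell, Fdps. The calls of Ccl3, Acvr2a and Fdps were each lost without at least 5 of the 9 libraries (adjusted p up to 0.16). Of 13 MHC class I genes 2 fell, Pdia3 and the immunoproteasome gene Psmb9, with 5 and 6 of the 9 libraries each ending the call when left out (adjusted p up to 0.0986 and 0.102), while B2m was 3468 ± 370.0 in endogenous, 3532 ± 431 in irradiated and 3329 ± 546 in circulating cells. With circulating replicates 2 and 3 left out there were 2 calls among the MHC class I genes, 1 each in the inflammatory and TGF-beta lists and 0 in the p53, immediate early and cholesterol lists.

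Since the strain label names the CD45.1 allele, which lies in Ptprc on chromosome 1 (138062861 to 138175708), calls were counted by position. Ptprc itself did not pass (0.16, SE 0.12, adjusted p = 0.48). Within 10 Mb of it 10 of 114 tested genes were called (8.77%), from 10 to 25 Mb 5 of 123 (4.07%), from 25 to 50 Mb 20 of 269 (7.43%) and farther on the chromosome 21 of 428 (4.91%), beside 6.09% over all genes. By autosome the share ran from 4.78% on chromosome 16 to 8.22% on chromosome 19. Of the 4 genes called between circulating and irradiated cells, 2 lay within 10 Mb of Ptprc, Ctse and Cxcr4. At an unadjusted p under 0.05 by limma, these groups differed in 21 of 114, 19 of 123, 41 of 269 and 27 of 428 genes, in the same order of distance. The share over all genes was 11.4%. The cause was not tested. Rab7b, a small GTPase gene on chromosome 1 from 131688695 to 131715439, was 25.2, 58.1 and 58.0 in circulating, 22.0, 16.0 and 13.9 in irradiated and 3.36, 4.93 and 5.74 in endogenous libraries (-2.35, SE 0.31, adjusted p = 0.0041). Called genes near Ptprc also were Rnpep, Snrpe and Uchl5 (lower) and Kdm5b and Lax1 (higher), and Ctse. The call was lost without 8 of the 9 libraries for Lax1 (adjusted p up to 0.166), 6 for Rnpep (0.141) and 5 each for Kdm5b (0.138), Snrpe (0.154) and Uchl5 (0.0852). Fcmr was called as well, a call lost without 7 of the 9 (0.165), but its values were 5.36, 38.3 and 17.0 in circulating, 0.0615 to 0.712 in irradiated and 0.0221 to 0.832 in endogenous libraries, so only the circulating group was high.

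Some genes were near the floor on one side. By a rule chosen after values were seen, 4 genes were under 1 in all endogenous libraries and at least 1 in the other 6, and 17 the reverse, of which 2 and 8 were called. The rule used the values that the test compared, and the 17 passed the filter only through the endogenous libraries. Their number and calls are therefore not evidence of a difference, and the counts of the 2 kinds are not comparable. Fn3krp, the gene of a protein repair kinase that acts on glycated proteins, lies on chromosome 11 from 121421401 to 121431288. It was 2.53, 8.43 and 8.54 in circulating, 42.3, 35.0 and 40.9 in irradiated and 0.642, 0.374 and 0.535 in endogenous libraries. The 3 groups lay apart, with endogenous cells lowest and circulating cells between (-3.45, SE 0.35, adjusted p = 0.0012). Slc25a21, a mitochondrial carrier gene, was 1.73 to 23.1 in the other 6 libraries and 0.486, 0.463 and 0.0193 in the endogenous ones (-2.42, SE 0.56, adjusted p = 0.032). Of the reverse kind, Meg3 was 0.0705 to 0.926 in the other 6 libraries and 4.62, 3.65 and 1.57 in the endogenous ones, Runx1t1, a transcriptional corepressor gene, 0.0205 to 0.786 against 3.56, 3.02 and 1.10, and Ptges, a prostaglandin E synthase gene, 0.0655 to 0.985 against 2.06, 8.08 and 2.47. A count of 3 corresponds to a value of 0.128 to 0.263, depending on the library, so values under that are not distinguished from 0. The calls of Slc25a21 and Ptges were lost without any irradiated (adjusted p = 0.0503 to 0.0852) or endogenous library (0.0669 to 0.133), and that of Runx1t1 without any irradiated library (0.055 to 0.0892), endogenous replicate 1 (0.156) or 2 (0.138) or circulating replicate 3 (0.0554). The Meg3 call was lost without endogenous replicate 1 or 2.

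A difference from the mean can also arise where only one of the averaged groups differs. Ctse, which encodes cathepsin E, was 648, 508 and 713 in circulating, 45.4, 63.4 and 75.7 in irradiated and 711, 831 and 735 in endogenous libraries. Its difference from the mean was 1.96 (SE 0.16, adjusted p = 0.00079), while it was 0.30 against circulating and 3.63 against irradiated cells. Dynlt1b, a dynein light chain gene with near-identical copies whose reads may be divided uncertainly, and the chemokine receptor gene Cxcr4 had the same pattern. Cxcr4, which retains stem cells in marrow, was 65.8, 57.8 and 64.8 in circulating, 9.86, 14.5 and 8.54 in irradiated and 47.0, 44.2 and 50.8 in endogenous libraries (0.82, SE 0.19, adjusted p = 0.032), and its endogenous libraries lay below the circulating ones, a difference that did not pass (-0.40, adjusted p = 0.27). Its call against the mean was lost without irradiated replicate 1 (0.0763) or 3 (0.0757) or endogenous replicate 1 (0.123), 2 (0.096) or 3 (0.106), and with the 6 other libraries as 1 group (0.49). That setting also ended the call of Ctse (0.34). Adgrg1, an adhesion receptor gene of stem cells, was 646, 711 and 524, then 1187, 1215 and 1241, and 1613, 1532 and 1282 in the same groups (0.76, SE 0.11, adjusted p = 0.0057), so that circulating cells lay far below both others. Against irradiated cells alone it did not pass (0.27, adjusted p = 0.34). These 4 are the genes that differed between circulating and irradiated cells.

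**Figure D4:**
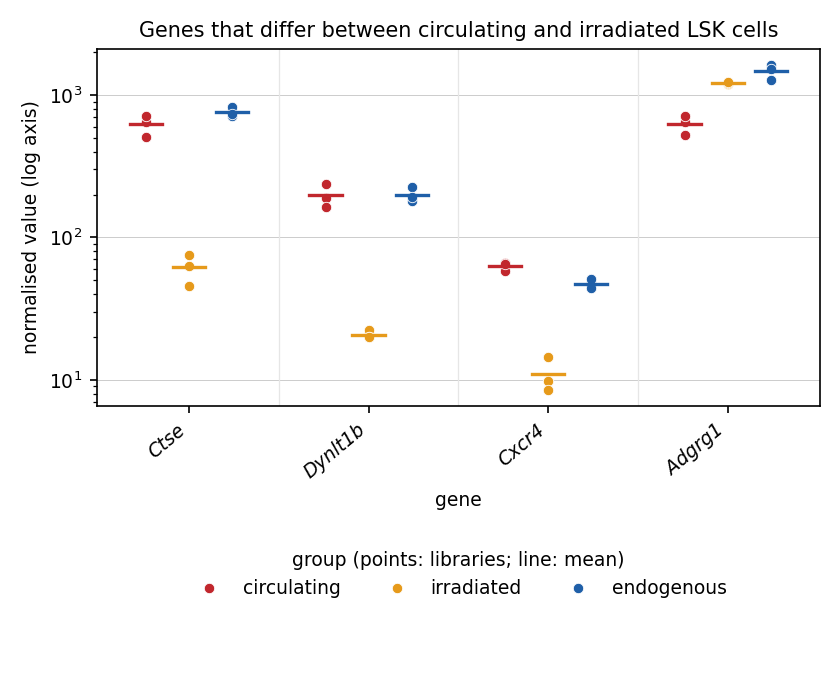
Deposited normalised values (log axis) of Ctse, Dynlt1b, Cxcr4 and Adgrg1 in each library; points are libraries, horizontal lines are group means, and colours mark the groups. In the first 3 genes the irradiated libraries alone lie low, and in Adgrg1 the circulating libraries do.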

How the data were processed

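RNA was measured by sequencing in sorted LSK cells in 9 libraries. Per the labels' protocols, the kits were SMART-Seq v4 for cDNA and Nextera XT for libraries, which mark no strand, so overlapping and antisense genes are not separated. The submitters' processing notes name CASAVA, RSEM 1.3.1, limma and mm10, with no role or order. The table deposited by the authors holds a normalised signal of 14461 Ensembl genes. In each column 100% of values equal (a number with 2 decimals + 0.5) times a constant, within 0.01 of the last decimal step, from which estimated counts were recovered. Reads amplified by PCR and not tagged per molecule are not independent, so depth bounds counting error only. Symbols and coordinates came from GENCODE for GRCm38 (14405 genes matched, 56 did not).

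Genes with a value of at least 1 in 3 or more libraries were fitted with limma-trend (limma 3.58.1, R 4.3.3, robust) on log2(value + 1), with 3 group means and no covariates, which understates the change of low genes. Low-level folds depend on the pseudocount. The fit was tested on simulated data. Gene lists are described by counts and medians, without a set test. The members and lists were chosen with earlier results of these data known. Named genes were the 15 largest rises and falls among called genes with a mean log2 value of at least 2 and no overlap with the other 6 libraries (predicted loci, pseudogenes, immunoglobulin, T cell receptor and mitochondrial genes left out), up to 4 called and 3 uncalled members per list, Ly6a, Kit, Cd34, Flt3, Ptprc and Cxcr4, and up to 8 called genes within 25 Mb of Ptprc. Promoters shown belong to the called members with the largest difference that hold the motif before the start. Members on chromosome 18 or with several promoter sequences were left out of that choice. Adgrg1, Dynlt1b, Slc25a21, Runx1t1, Ptges, Hspa5, Xist and Ddx3y were chosen after their values were seen.

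Alternatives were other pseudocounts, filters, scalings and sample weights, voom on recovered estimated counts, the 6 other libraries as 1 group, pairwise fits, each library left out, the replicate number and the title code as a block, and, added after seeing the data, leaving out circulating replicates 2 and 3. Some genes are not reported here.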

Additional observations from a re-analysis of the deposited data

Results flagged for a closer look

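Against the mean of circulating and irradiated cells, Ctse, Cxcr4, Dynlt1b and Adgrg1 were called while these groups differed from each other by limma at an adjusted p under 0.05. Circulating minus irradiated was 3.34 for Ctse, 2.44 for Cxcr4, 3.18 for Dynlt1b and -0.96 for Adgrg1, in log2 units. The 3 circulating and the 3 irradiated libraries did not overlap in any of the 4 genes.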

How the results depend on the processing

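Endogenous against the mean of circulating and irradiated cells gave 838 calls, and 610 (the 6 other libraries as 1 group) to 1220 (sample weights) under the planned settings that kept all libraries. Leaving out 1 library gave 105 to 1789. The replicate block by number gave 831 and that by title code 732. Deviations from the group means correlated at -0.02 to 0.18 between same-numbered libraries. For circulating and irradiated libraries that share a title code the values were 0.05, 0.03 and 0.18. For the other circulating and irradiated pairs they ran from -0.17 to 0.11. The consensus correlation by title code was 0.12. The numbers were not taken as pairs in the main fit because the labels do not say what they stand for. All 838 genes kept their sign in every setting in which they were tested, except 1 under quantile normalisation; a filter at a value of 5 left 803 of them.

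Endogenous against circulating cells gave 1189 calls, with 481 under sample weights, 239 in a fit of those groups alone, 164 without circulating replicates 2 and 3 and 257 to 2224 with 1 library left out. Endogenous against irradiated cells gave 83, with 138 at a filter of 5, 865 under sample weights, 757 in a fit of those groups alone, 770 without circulating replicates 2 and 3 and 6 to 263 with 1 library left out. Circulating against irradiated cells gave 4, with 15 at log2(value + 5), 13 at a filter of 5, 11 with equal totals, 8 by voom, 9 with the replicate block by number, 19 with that by title code, 72 without circulating replicates 2 and 3 and 3 to 137 with 1 library left out. The cause was not tested.

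With 1 library left out, the number of the 102 named calls that were lost ran from 0, for circulating replicate 1, to 73, for endogenous replicate 2; 0 changed sign in any setting run. With 3 libraries per group, small differences of variable genes could not be called.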
